A study of Mus musculus with 6 samples.

Results

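The genes described here encode the delayed rectifier and transient outward potassium channels of the heart. They were the 9 rows of the expression table named Kcne1, Kcnq1, Kcnh2, Kcnd2, Kcnd3, Kcnip2, Kcna4, Kcna5 and Kcnv2, out of 24602 genes. The libraries held left ventricular RNA of mice labelled wild type, taken 5 weeks after surgery in both groups. For 3 libraries the surgery was transverse aortic coarctation (TAC), in which the aorta is narrowed so that the ventricle pumps against a higher pressure. For the other 3 it was a sham operation (Sham). Strain, sex and age are not stated. Whether the 3 samples of a group were 3 mice is not stated either, and the p-values cover only the variation among samples, part of which may be technical. Counts summed to between 64026540 and 69992502 in TAC libraries and to between 64023153 and 68121413 in Sham libraries.

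Potassium channels that open on depolarization end the cardiac action potential. Transient outward channels open and inactivate quickly and shape early repolarization; delayed rectifiers open more slowly and carry the rest. In the mouse ventricle Kcnd2 and Kcnd3 encode pore-forming subunits of the fast transient outward current, and Kcnip2 encodes the calcium-binding accessory subunit that brings them to the membrane. Kcna4 encodes the pore of the slow transient outward current and Kcna5 the pore of a rapidly activating delayed rectifier that is large in mouse. Kcnq1 with the single-span subunit Kcne1 forms the slow delayed rectifier, and Kcnh2 forms the rapid one. These last currents are small in adult mouse ventricle but repolarize the human heart. Kcnv2 encodes a subunit that makes no channel alone and alters channels of the Kcnb family.

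Promoter sequence was at hand for 6 of the 9 genes (RefSeq, GRCm38.p6), including Kcnip2 and Kcnh2, which fell in TAC. Their 250 bases before the annotated start are shown because the data bear on their transcript levels. Capitals mark GC boxes, the letters GGGCGG or CCGCCC on either strand. The Kcnip2 window lies on the minus strand at chr19:45816064-45816313. The Kcnh2 window lies on the minus strand at chr5:24329592-24329841, inside the Kcnh2 gene of GENCODE M21, which spans 24319589 to 24351604, so it precedes an internal start.
Kcnip2: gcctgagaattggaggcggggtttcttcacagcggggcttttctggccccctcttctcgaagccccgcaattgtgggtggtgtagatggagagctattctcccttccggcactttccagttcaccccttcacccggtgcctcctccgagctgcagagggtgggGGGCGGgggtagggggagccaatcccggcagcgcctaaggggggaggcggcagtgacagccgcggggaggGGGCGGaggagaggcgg
Kcnh2: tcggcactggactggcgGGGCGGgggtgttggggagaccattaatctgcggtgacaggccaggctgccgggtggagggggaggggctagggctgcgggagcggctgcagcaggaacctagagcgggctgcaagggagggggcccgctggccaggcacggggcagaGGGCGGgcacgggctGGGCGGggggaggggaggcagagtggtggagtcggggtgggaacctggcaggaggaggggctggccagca
The Kcnip2 window held 2 GC boxes and was 66.8% G and C, and the Kcnh2 window held 3 and was 73.6% G and C. Over the 6 windows, 4 held a GC box, against 32.7% of 32851 mouse promoter windows of the same length. Kcna4 and Kcnd2, which did not pass the test described below, had 1 each, and Kcna5 and Kcnd3 had none. All 6 held a CACCC box (CACCC or GGGTG), as did 52.0% of all windows. None of the 6 held TATAAA or TTTATA, which 12.4% of all windows held. These matches describe the letters only.

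In TAC ventricles 4 of the 9 genes fell, Kcne1, Kcnq1, Kcnh2 and Kcnip2, and none rose. Kcne1 fell to 21.4% of its Sham level. Kcnq1, Kcnh2 and Kcnip2 fell to 54.8%, 57.1% and 63.6%, in TMM-scaled counts. Kcna5 was lower in every TAC library than in every Sham library but did not pass, and Kcnd2, Kcnd3, Kcna4 and Kcnv2 overlapped between the groups. The comparison was edgeR's quasi-likelihood test, with a call at a Benjamini-Hochberg adjusted p under 0.05 over the 8795 genes whose mean FPKM (fragments scaled to transcript length and library size) was 1 or more. Of those genes 2.29% were called lower and 4.71% higher in TAC, 6.99% in all, and their median log2 fold change was -0.01.

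That filter kept 5 members, each above 1 FPKM in every library, and all 5 had an unadjusted p under 0.05. Kcnd2, Kcnd3, Kcna4 and Kcnv2 lay under it and were compared in a second fit over the 15003 genes that averaged at least 0.1 FPKM, which held all 9. In the second fit the same 4 members were called lower and none higher, where 1.88% of all genes were lower and 2.76% higher, 4.64% in all. No member had an unadjusted p under 0.05 in the upward direction in the second fit, nor any of the 5 that DESeq2 and limma were run on. The median log2 fold change there was -0.68 over the 9 members and 0.01 over all genes. In FPKM, 5 of the 9 members had every TAC library below every Sham library, as did 17.3% of the 15003 genes. Among the 8795 genes of the first fit this share was 25.4%. In TMM-scaled counts the same 5 members had separate groups, against 11.8% of the 15003 genes and 17.1% of the 8795.

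**Figure D1:**
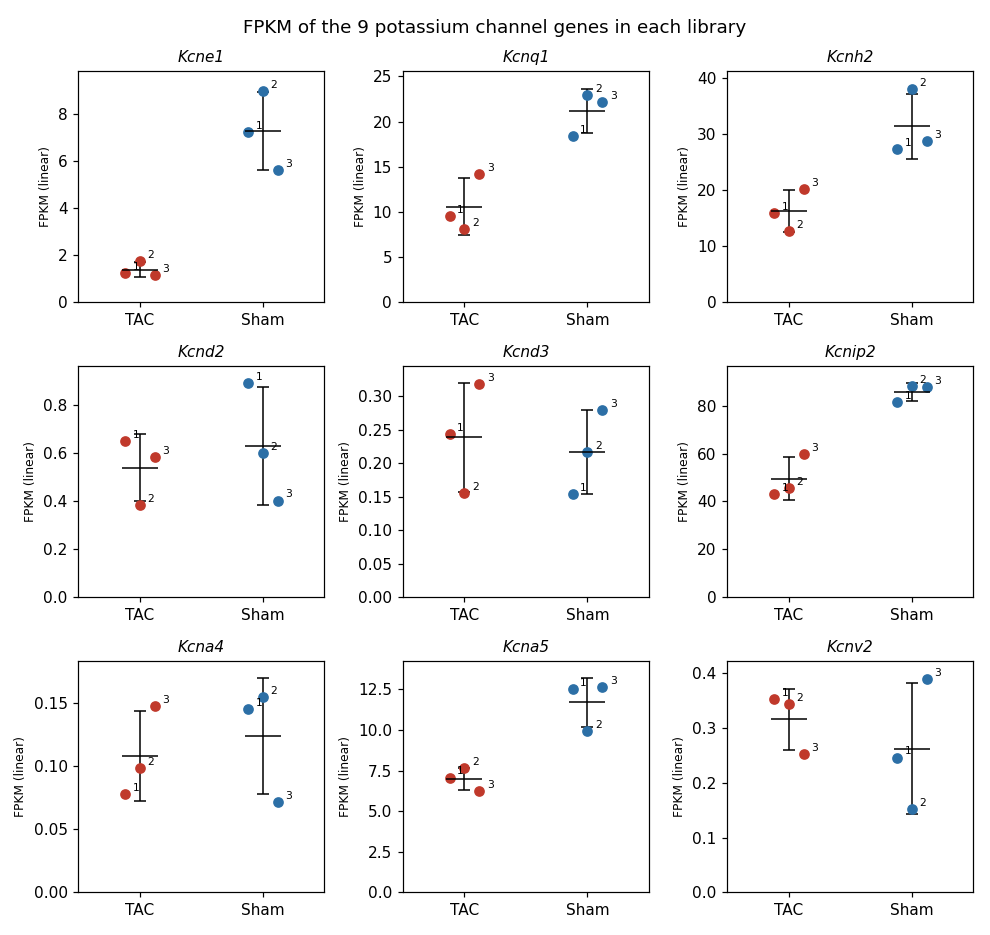
FPKM of each gene (linear axis from 0) in the 3 TAC and 3 Sham libraries, as points numbered by replicate, with the group mean and SD as lines. Kcne1, Kcnq1, Kcnh2, Kcnip2 and Kcna5 have all TAC points below all Sham points; the points of the other 4 genes overlap.

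The slow delayed rectifier pair was lower in TAC in both its subunits. Kcne1, on chromosome 16 (92345982 to 92359468 in GRCm38), had 1.24, 1.75 and 1.17 FPKM in TAC libraries, against 7.23, 8.96 and 5.61 FPKM in Sham libraries. The groups were far apart, with the highest TAC library well under the lowest Sham library. The log2 fold change was -2.23 ± 0.25 (SE, n = 3 each; edgeR adjusted p = 0.00989), which ranked 3 by size of fall among the 201 genes called lower. Estimated counts of Kcne1 were 268, 417 and 276 in TAC and 1645, 1986 and 1209 in Sham.

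Kcnq1, the pore that Kcne1 joins, lies on chromosome 7 (143106362 to 143427042). It had 9.48, 8.11 and 14.1 FPKM in TAC libraries, against 18.3, 22.9 and 22.2 FPKM in Sham libraries. TAC replicate 3 stood nearest to Sham, yet below all 3 Sham libraries. The log2 fold change was -0.87 ± 0.18 (SE, n = 3 each; edgeR adjusted p = 0.0341). The antisense RNA gene Kcnq1ot1 covers 3.0% of the exonic bases of Kcnq1 and was listed at 35, 67 and 14 estimated counts in TAC and 67, 29 and 12 in Sham, against 2461 or more for Kcnq1 in every library.

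Kcne1 was also lower relative to Kcnq1. Within a library the ratio of Kcne1 to Kcnq1 in FPKM was 0.130, 0.215 and 0.0825 in TAC, against 0.394, 0.391 and 0.253 in Sham. All TAC ratios were below all Sham ratios. The mean log2 ratio was -2.92 ± 0.69 in TAC and -1.56 ± 0.37 in Sham (SD, n = 3 each), a difference of -1.36. The 2-sided exact permutation test gave p = 0.1, the smallest that 3 against 3 samples allow. A ratio within a library does not depend on how libraries are scaled.

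Kcnh2, the pore of the rapid delayed rectifier, on chromosome 5, had 16.0, 12.7 and 20.2 FPKM in TAC libraries, against 27.3, 38.1 and 28.9 FPKM in Sham libraries. The groups did not overlap, and as for Kcnq1 the highest TAC library was replicate 3, the lowest TAC library replicate 2 and the highest Sham library replicate 2. The log2 fold change was -0.81 ± 0.17 (SE, n = 3 each; edgeR adjusted p = 0.0358).

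Kcna5, the mouse delayed rectifier on chromosome 6 (126532551 to 126535412), had 7.08, 7.64 and 6.27 FPKM in TAC libraries, against 12.5, 9.97 and 12.6 FPKM in Sham libraries. The groups did not overlap, but the libraries were ordered otherwise than for Kcnq1 and Kcnh2, with TAC replicate 3 and Sham replicate 2 the lowest of their groups. Its log2 fold change was -0.59 ± 0.18 (SE, n = 3 each) and did not pass in edgeR (adjusted p = 0.0833). It passed in DESeq2 (adjusted p = 0.0307), which called 1648 of 8795 genes. It also passed in limma on log2(FPKM + 1) (adjusted p = 0.0419), a scale on which the median of all genes was -0.13. Of 20 alternative analyses it passed in 4, and in 0 of the 6 that left out 1 library. With the trends of each library over GC content and length removed, its log2 fold change was -0.37 (edgeR adjusted p = 0.323).

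Of the transient outward genes, the accessory subunit Kcnip2 fell and the pores did not pass. Kcnip2, on chromosome 19 (45791839 to 45816061), had 43.3, 45.5 and 59.7 FPKM in TAC libraries, against 81.4, 88.0 and 87.9 FPKM in Sham libraries. The Sham libraries lay close together and all 3 TAC libraries lay well below them. The log2 fold change was -0.65 ± 0.13 (SE, n = 3 each; edgeR adjusted p = 0.0323).

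Kcnd2, on chromosome 6 (21215503 to 21729805), had 0.652, 0.383 and 0.586 FPKM in TAC libraries, against 0.893, 0.600 and 0.403 FPKM in Sham libraries. The ranges overlapped, with Sham replicate 1 above every TAC library and TAC replicate 2 below every Sham library. Its log2 fold change in the second fit was -0.18 ± 0.33 (SE, n = 3 each; edgeR adjusted p = 0.765). Kcnd3, on chromosome 3 (105452330 to 105674002), had 0.243, 0.156 and 0.318 FPKM in TAC libraries, against 0.154, 0.217 and 0.279 FPKM in Sham libraries. It overlapped likewise, at a log2 fold change of 0.18 ± 0.32 (edgeR adjusted p = 0.761). The standard errors of both were larger than that of Kcnip2. Neither gene was in the fit that removed the trends of each library over GC content and length. Kcnip2 did not pass in that fit (log2 fold change -0.50, edgeR adjusted p = 0.0628). The antisense gene Kcnd3os covers 1.7% of the exonic bases of Kcnd3.

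The ratio of Kcnip2 to the sum of Kcnd2 and Kcnd3 in FPKM was 48.4, 84.5 and 66.1 in TAC, against 77.8, 107.7 and 128.8 in Sham. TAC replicate 2 lay above Sham replicate 1, so the groups overlapped. The difference in mean log2 ratio was -0.67 (2-sided exact permutation p = 0.2). In estimated counts the same ratio was 27.8, 47.7 and 36.0 in TAC, against 49.1, 62.4 and 67.4 in Sham. On that scale the groups did not overlap, at a difference of -0.70 (exact p = 0.1, the smallest possible). The ratio of Kcnd2 to Kcnd3 was 2.68, 2.46 and 1.84 in TAC, against 5.81, 2.77 and 1.44 in Sham, where the Sham libraries alone spanned all TAC values. Its difference was -0.31 (exact p = 0.7), and it was 0.20 without Sham replicate 1. The trends over GC content and length were not removed from the ratios.

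**Figure D2:**
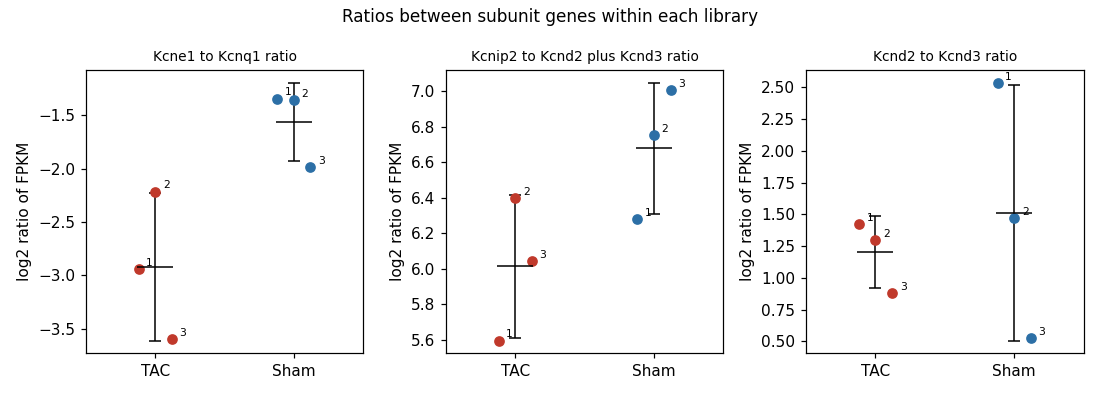
Log2 ratios of FPKM between subunit genes in each TAC and Sham library, as points numbered by replicate, with the group mean and SD as lines. Only the ratio of Kcne1 to Kcnq1 has separate groups, with TAC between 0.0825 and 0.215 and Sham between 0.253 and 0.394 on the linear scale.

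Kcna4, the slow transient outward pore, on chromosome 2 (107290639 to 107298502), was the lowest of the 9, with 26, 36 and 53 estimated counts in TAC and 50, 52 and 24 in Sham. Its FPKM was 0.0782, 0.0985 and 0.148 in TAC, against 0.145, 0.155 and 0.0713 in Sham, with a log2 fold change of -0.16 ± 0.45 (SE, n = 3 each; edgeR adjusted p = 0.854). Kcnv2, on chromosome 19 (27322588 to 27337179), had 0.353, 0.343 and 0.252 FPKM in TAC libraries, against 0.246, 0.152 and 0.390 FPKM in Sham libraries. Its log2 fold change was 0.33 ± 0.40 (edgeR adjusted p = 0.631). For both genes the groups overlapped, and their standard errors were the largest of the 9.

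**Figure D3:**
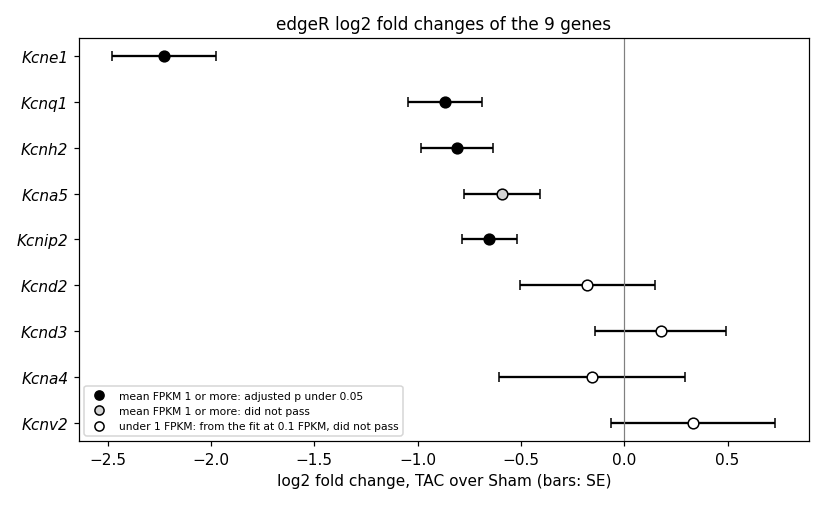
Log2 fold change of each gene, TAC over Sham, with its standard error as a bar; black marks passed, grey was tested and did not pass, and white marks are genes under 1 FPKM, taken from the second fit. Kcne1 stands at -2.23, the other called genes between -0.87 and -0.65, and the 4 low genes on both sides of 0.

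Per length, the order of the 9 genes by mean FPKM was the same from the top down in both groups. Kcnip2 led at 49.5 ± 8.92 in TAC and 85.7 ± 3.81 in Sham, followed by Kcnh2 at 16.3 ± 3.72 and 31.4 ± 5.83, and Kcnq1 at 10.6 ± 3.17 and 21.1 ± 2.45 FPKM (SD, n = 3 each). Kcna5 stood at 7.00 ± 0.687 in TAC and 11.7 ± 1.51 in Sham, and Kcne1 at 1.38 ± 0.316 and 7.27 ± 1.68 FPKM. The ranges of Kcnh2 and Kcnq1 overlapped in TAC but not in Sham, though Kcnh2 was above Kcnq1 in all 3 libraries of each group. Kcnd2, Kcnv2, Kcnd3 and Kcna4 followed in that order, all under 1 FPKM in every library, and the neighbours Kcnv2 and Kcnd3 overlapped in both groups, and Kcnd3 and Kcna4 in Sham. Together these 4 made 1.27% to 1.69% of the members' summed FPKM in TAC libraries and 0.664% to 0.970% in Sham libraries. Their transcripts were 44.4% to 51.9% G and C, against 53.5% to 60.9% for the other members. Mean transcript lengths were 2581 to 5152 bases, against 858 to 2862 bases. FPKM was not corrected for GC content between genes, and the part of these traits in the order was not tested. The sum over all 9 was 76.7 to 102.8 FPKM in TAC and 148.2 to 169.1 FPKM in Sham, and Kcnip2 made up 55.2% to 59.3% of it in TAC and 52.1% to 55.5% in Sham.

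The gene whose profile over the 6 libraries was most like that of Kcne1 was Ramp1, a receptor activity-modifying protein gene. The root mean square difference of its centred log2 CPM (counts scaled to library size, with TMM) was 0.14 among 8794 genes compared. Ramp1 had 1.40, 1.91 and 1.56 FPKM in TAC libraries, against 7.22, 9.53 and 5.74 FPKM in Sham libraries. Next came Dbh, the noradrenaline-making dopamine beta-hydroxylase (0.24), and Drd2, a dopamine receptor gene (0.33). The nearest of the other members, Kcnh2, came at rank 176 with 0.81, close to Kcnq1 at 0.81.

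Among the other voltage-gated channel genes, none of 4 tested pores passed and their median log2 fold change was -0.33. Kcng2, a subunit that is silent alone and alters Kcnb channels, had 26.0, 28.4 and 29.6 FPKM in TAC libraries, against 33.4, 43.2 and 35.4 FPKM in Sham libraries. Its groups did not overlap, yet the log2 fold change of -0.26 ± 0.13 did not pass (SE, n = 3 each; edgeR adjusted p = 0.238). Without TAC replicate 3, 1 of the 4 was called lower, in a fit that called 892 of 8795 genes lower, against 201 in the main fit. In the second fit none of 9 such pores passed, with a median of -0.36. At an unadjusted p under 0.05 there were 0 of 4 in the first fit and 5 of 9 in the second, 4 lower and 1 higher; DESeq2 and limma, run on the 4, called 0.

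Of the other accessory and anchoring genes, 1 was tested in the first fit and did not pass in edgeR, DESeq2 or limma, nor at an unadjusted p under 0.05. In the second fit 1 of 7 rose and none fell. This was Akap9, named after its value was seen, which encodes the anchoring protein that ties protein kinase A to KCNQ1 in human heart. Akap9 had 0.203, 0.222 and 0.251 FPKM in TAC libraries, against 0.124, 0.0958 and 0.137 FPKM in Sham libraries (log2 fold change 0.96 ± 0.22, SE, n = 3 each; edgeR adjusted p = 0.0459). The groups did not overlap, and without any filter on low values the gene did not pass (adjusted p = 0.0647). Dlg1, a membrane scaffold that binds potassium channels, had 0.62 ± 0.22 (adjusted p = 0.113) and Kcnab2, a cytosolic beta subunit of Kcna channels, -0.10 ± 0.23 (adjusted p = 0.820).

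None of the 3 regulators in the first fit passed in edgeR, DESeq2 or limma with all 6 libraries, and 0 had an unadjusted p under 0.05. The fourth, Kcnq1ot1, was fitted only without a filter on low values (log2 fold change 0.16 ± 0.72, edgeR adjusted p = 0.932). Irx5, which represses Kcnd2 in mouse ventricle, had 0.998, 1.83 and 1.78 FPKM in TAC libraries, against 1.38, 1.75 and 2.09 FPKM in Sham libraries (edgeR adjusted p = 0.946). Klf15, which activates Kcnip2 in mouse heart, had 9.29, 7.27 and 17.6 FPKM in TAC libraries, against 17.6, 10.7 and 22.4 FPKM in Sham libraries. TAC replicate 3 reached the Sham range, and the log2 fold change was -0.46 ± 0.34 (SE, n = 3 each; adjusted p = 0.415). Irx3, a homeobox gene of the ventricular conduction system, had -0.27 ± 0.19 (adjusted p = 0.395), and passed without TAC replicate 3 (-0.49, adjusted p = 0.0375), in a fit that called 1705 genes in all.

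Markers of ventricular muscle were abundant in all libraries, with Myl2, the ventricular myosin light chain, between 3087 and 4756 FPKM in TAC and between 4221 and 5751 FPKM in Sham. None of 8 such markers passed in edgeR, and 0 had an unadjusted p under 0.05 in the first fit. The second fit, DESeq2 and limma called 0 too. At an unadjusted p under 0.05 the second fit and limma each had 1 lower, and DESeq2 had 1 higher and 1 lower. The median log2 fold change was -0.17, while their summed FPKM was 17627 to 22976 in TAC and 25338 to 29332 in Sham. Tnnt2, Ttn and Pln had log2 fold changes of 0.35, 0.42 and 0.14, and the others lay between -0.47 and -0.14. The most abundant genes dominate the sum, and in limma on log2(FPKM + 1) the median of all genes was -0.13. In bulk tissue, fewer cells of a type and less RNA per cell cannot be told apart. Conduction system markers summed lower in TAC as well. Of 4 tested, Cacna1g, a T-type calcium channel gene, fell (log2 fold change -1.15 ± 0.20, edgeR adjusted p = 0.0257), and the median was -0.90. At an unadjusted p under 0.05, 3 of the 4 were lower in edgeR and 4 in DESeq2 and in limma, of which DESeq2 called 2 and limma 1 after adjustment. The second fit called 2 of 7 lower. Hcn4, the pacemaker channel gene, named after its value was seen, had 1.78, 1.13 and 2.04 FPKM in TAC libraries, against 4.02, 5.36 and 2.60 FPKM in Sham libraries (adjusted p = 0.0506). The summed FPKM of 9 conduction markers was 4.76 to 6.73 in TAC and 9.41 to 14.8 in Sham, and the most abundant genes dominate this sum too. Cntn2 and Gja5 did not pass (edgeR adjusted p = 0.187 and 0.116). Tbx3 overlapped, at 0.535 to 0.671 FPKM in TAC and 0.513 to 0.869 in Sham. Shox2 was higher in every TAC library (0.0320 to 0.0802 FPKM) than in Sham (0 to 0.0269). These 4 were named after their values were seen. The part of the conduction markers in the fall of Kcne1 was not tested.

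Atrial markers varied between libraries of the same group. Their summed FPKM apart from Nppa, over 8 genes, was 106.3, 20.3 and 34.7 in TAC, against 36.2, 200.8 and 136.3 in Sham, and Bmp10 was listed at 0 in all TAC libraries and in Sham replicate 3. Of 8 tested atrial markers, Sbk2 fell and Nppa, the natriuretic peptide gene that the loaded ventricle also makes, rose; limma called 0 of the 8 higher. With the mean log2 CPM of 7 atrial markers as a covariate, added after the data were seen, the log2 fold change of Kcne1 was -2.36 (adjusted p = 0.0843), in a fit that called 4 genes in all. Of the nerve and glia markers, Dbh fell and the summed FPKM of 4 was 2.82 to 3.54 in TAC and 6.17 to 7.48 in Sham. Without Dbh the sum of the other 3 was 2.41, 2.43 and 1.94 in TAC, against 2.82, 1.59 and 2.79 in Sham, and the groups overlapped; the part of these cells in the result was not tested. Of 6 fibroblast markers Dcn, Lum and Postn rose. The others did not pass in edgeR, with log2 fold changes of 0.73 for Col1a1, 0.99 for Pdgfra and -0.10 for Tcf21. The summed FPKM of all 6 was 54.7, 46.2 and 118.6 in TAC, highest in TAC replicate 3, and 35.6 to 43.1 in Sham. DESeq2 called 3 of the 6 higher and limma 0. Of 6 smooth muscle and pericyte markers, a tissue that also uses Kcna5, Cnn1 and Rgs5 rose, and the sum was 89.2 to 130.6 in TAC and 95.3 to 125.6 in Sham. Of 5 endothelial markers Tek rose, and the sum was 95.9 to 127.0 in TAC and 96.5 to 111.5 in Sham; the second fit and limma called 0 of the 5, and DESeq2 called 2. None of 4 tested macrophage and leukocyte markers passed in edgeR, where 1 had an unadjusted p under 0.05; DESeq2 called 1 and limma 0. No listed marker was at 0 in all 6 libraries. The part of these cell types in the results was not tested.

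**Figure D4:**
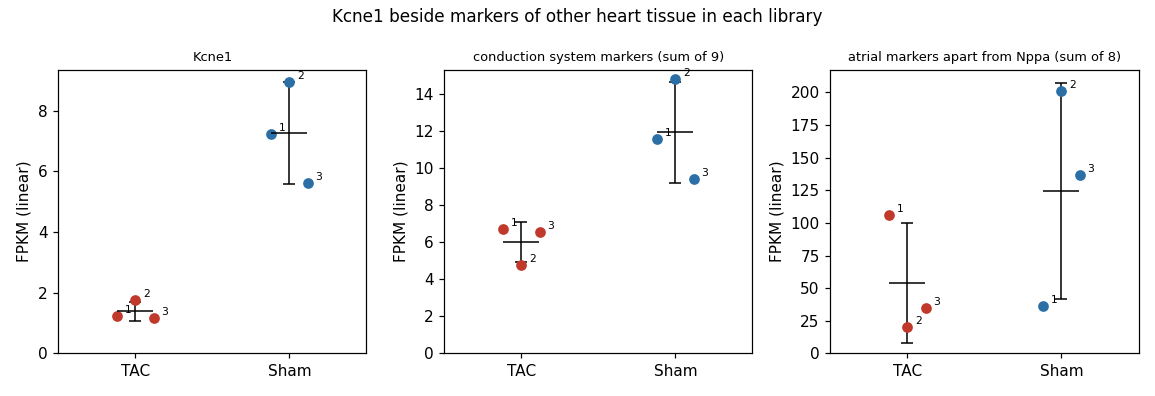
FPKM of Kcne1, summed FPKM of 9 conduction system markers and summed FPKM of 8 atrial markers (linear axes from 0) in each TAC and Sham library, as points numbered by replicate, with the group mean and SD as lines. Kcne1 and the conduction markers have separate groups, with the conduction sum at 4.76 to 6.73 in TAC and 9.41 to 14.8 in Sham, and the atrial markers overlap.

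The fall of Kcne1 passed in 18 of 20 alternative analyses and kept its direction in all, with log2 fold changes between -2.47 and -1.78; it did not pass without Sham replicate 2 (adjusted p = 0.0533) or with the atrial covariate. Kcnq1, Kcnh2 and Kcnip2 also kept their direction in all 20, but passed in 10, 10 and 11. They passed without TAC replicate 3, and not without any other library, where their edgeR adjusted p ranged from 0.0508 to 0.141 for Kcnq1, from 0.0548 to 0.148 for Kcnh2 and from 0.0647 to 0.133 for Kcnip2. The fit without TAC replicate 3 called 1705 genes, 892 of them lower, against 615 and 201 in the main fit. After removal of the trends of each library over GC content and length, Kcne1 passed (-2.06, adjusted p = 0.0115), whereas Kcnq1 (-0.69, 0.132), Kcnh2 (-0.57, 0.0807) and Kcnip2 (-0.50, 0.0628) did not. The transcripts of Kcnh2 are 60.9% G and C and those of the other 3 genes between 53.5% and 56.2%.

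**Figure D5:**
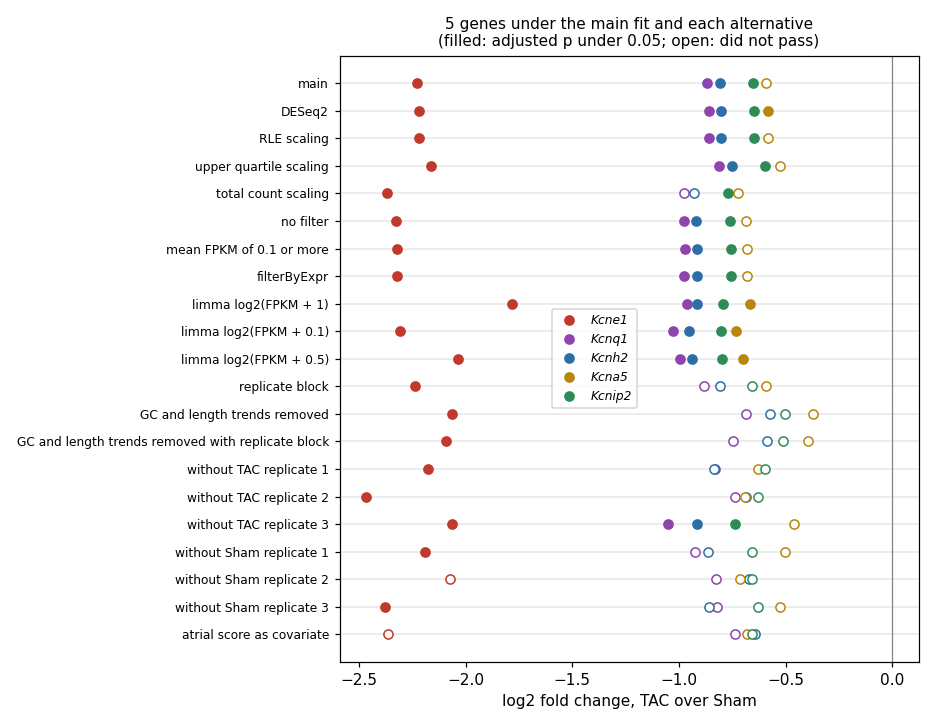
Log2 fold changes, TAC over Sham, of the 5 genes over 1 FPKM in the main fit and in each alternative, filled where the adjusted p was under 0.05 and open where not. All points lie below 0; Kcne1 is filled in all but 2 alternatives, and Kcna5 is filled in 4.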

How the data were processed

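The authors deposited FPKM and count columns for 24602 genes in 6 libraries, per the file headers. Poly(A) RNA was sequenced from libraries that mark strand with dUTP, per the labels' protocols. The submitters' processing notes name cutadapt 1.9, HISAT2 2.0.4, StringTie 1.3.4d and build GRCm38. Annotation release, use of strand and counting method: not given in the sources used here. Those deposited counts were treated as estimated counts; they were whole numbers already, so rounding changed nothing.

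Counts were scaled by TMM and compared with edgeR 4.0.16 (glmQLFit and glmQLFTest, R 4.3.3) over the genes that averaged at least 1 FPKM, with Benjamini-Hochberg adjustment. A standard error is the log2 fold change divided by the square root of F. CPM values are TMM-scaled. The script was tested on simulated data. Ratios were tested by exact permutation (scipy 1.17.1).

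The 9 genes and the lists were chosen with earlier results of these data known. Named were all 9, the called and the 3 most abundant genes of each list of other subunits, 4 regulators, and the 3 genes most like Kcne1. Of the identifiers 24547 were found in GENCODE M21, the source of overlap, GC content and length (mean over transcripts); trends were smoothed by lowess (span 0.3, 3 rounds). Alternatives were DESeq2 1.42.0, limma 3.58.1 with pseudocounts of 1, 0.5 and 0.1, other scalings and filters, the trends, the replicate block, each library left out, and an atrial covariate. Kcnb2, Kcne2, Kcne5, Isl1 and Th were not analysed here. Some genes that the naming rule picks are not reported here.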

Additional observations from a re-analysis of the deposited data

How the results depend on the processing

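The 615 genes called became 1648 with DESeq2, 345 with total count scaling, 285 with no filter on low values, 409 with the GC and length trends removed and 4 with the atrial covariate. Without 1 library they were 12 to 1705, with 12 without Sham replicate 2 and 1705 without TAC replicate 3. The 4 members called lower became 2 with total count scaling, 1 with the trends removed and 0 with the atrial covariate, and 0 to 4 without 1 library (0 without Sham replicate 2, 4 without TAC replicate 3, 1 without each of the others). They were 5 with DESeq2 and limma. Of the other pores 0 to 1 was lower without 1 library, and 0 in the other analyses; of the other accessory genes 0 was lower in each. Total count scaling moved the median log2 fold change of all genes to -0.14, and calls lower in TAC were then 54.5% of all calls, against 32.7% in the main analysis, 66.0% with limma on log2(FPKM + 1) and 45.0% with the trends removed.

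Replicate numbers recur in both groups. Deviations of same-numbered TAC and Sham libraries correlated at -0.10, 0.14 and -0.06 over 8795 genes, so the numbers were not taken as pairs. With the replicate number as a block, 183 genes and 1 member (Kcne1) were called, and 151 genes and 1 member with the trends removed as well. Without 1 library the difference in log2 ratio ranged from -1.71 to -1.02 for Kcne1 to Kcnq1, from -0.87 to -0.46 for Kcnip2 to Kcnd2 plus Kcnd3, and from -0.80 to 0.20 for Kcnd2 to Kcnd3, which reversed without Sham replicate 1. The log2 fold change of Irx5, -0.04, reversed to 0.024 with upper quartile scaling, 0.21 with the trends removed, 0.19 with trends removed and the block, 0.17 without TAC replicate 1 and 0.13 without Sham replicate 3, in a range of -0.23 to 0.17 without 1 library. The cause of these shifts was not tested. Depth limits Kcna4 most, at 24 to 53 estimated counts a library.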
